A study of Homo sapiens with 16 samples.

Results

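The genes of the JUN and FOS family were examined for nearby binding of hypoxia-inducible factor (HIF). The 8 members, called family genes here, were JUN, JUNB, JUND, FOS, FOSB, FOSL1, FOSL2 and the ATF gene ATF3. A peak belonged to a family locus when its centre lay within 100 kb of a protein-coding start site of any of them on GRCh37. Of the 23398 peaks in the lists used here, 132 met this rule. Peaks that overlapped between libraries were merged, which left 46 sites at the family loci among 11664 sites in all, and the 8 genes stood among 19821 protein-coding genes. A family gene was the nearest protein-coding gene at 21 of the 46 sites, and another gene was nearer at the other 25, so that the label of a family locus describes distance and not a known target.

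Chromatin immunoprecipitation followed by sequencing (ChIP-seq) recovers the DNA attached to a protein and lists the stretches, called peaks, where that DNA accumulates. The study used rabbit polyclonal antibodies against HIF-1α (PM14) or HIF-2α (PM9), the alternative oxygen-regulated subunits (isoforms) of HIF, in 4 established human cancer lines. A549 is a lung carcinoma line, HCT116 a colorectal carcinoma line, PC3 a prostate carcinoma line and T47D a breast carcinoma line, and all of their cells had been held in 0.5% O2 for 16 h. Each of the 8 combinations of line and isoform had 2 replicate libraries, and no normoxic library was used here. The labels number the replicates without naming separate cultures, so p-values measure only the spread between these libraries.

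AP-1 is a dimeric transcription factor made of Jun and Fos proteins, which join through a leucine zipper and bind a short palindromic DNA element. Jun proteins can pair with themselves or with a Fos protein, whereas Fos proteins need a Jun partner. Many of the genes are induced within minutes by growth factors and stress, and AP-1 drives proliferation, migration and stress responses in carcinoma cells. HIF-1α and HIF-2α each pair with HIF-1β and bind the hypoxia response element, whose core reads ACGTG or GCGTG.

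Stretches of 200 bp from the merged sites are given for some of the distal sites on which the results turn. The promoter of PPP1R13L at the FOSB locus is also given. All read 5′ to 3′ on the + strand of GRCh37. Capitals mark ACGTG or GCGTG on either strand (CACGT and CACGC are the reverse complements) and the AP-1 element TGACTCA or its reverse complement TGAGTCA.
FOS upstream site, T47D only (chr14:75721570-75721769): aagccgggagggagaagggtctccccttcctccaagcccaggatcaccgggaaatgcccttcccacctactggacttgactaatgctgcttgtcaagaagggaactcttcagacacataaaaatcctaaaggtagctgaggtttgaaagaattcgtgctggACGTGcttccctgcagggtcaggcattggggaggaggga
JUN downstream site, HIF-1α in HCT116 and PC3 (chr1:59221245-59221444): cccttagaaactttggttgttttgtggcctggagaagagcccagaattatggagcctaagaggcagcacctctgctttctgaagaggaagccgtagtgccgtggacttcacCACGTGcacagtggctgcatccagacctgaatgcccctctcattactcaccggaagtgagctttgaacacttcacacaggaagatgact
JUNB upstream site, both isoforms in A549, HCT116 and PC3 (chr19:12893869-12894068): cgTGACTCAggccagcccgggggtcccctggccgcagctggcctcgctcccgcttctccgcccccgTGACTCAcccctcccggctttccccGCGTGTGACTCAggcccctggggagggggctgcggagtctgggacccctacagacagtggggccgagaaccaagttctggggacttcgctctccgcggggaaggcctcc
FOSL2 intronic site, HCT116 only (chr2:28632252-28632451): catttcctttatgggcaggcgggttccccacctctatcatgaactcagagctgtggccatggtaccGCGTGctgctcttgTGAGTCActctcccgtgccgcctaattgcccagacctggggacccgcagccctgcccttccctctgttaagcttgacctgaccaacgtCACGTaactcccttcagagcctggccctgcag
FOSB locus, PPP1R13L promoter, HIF-1α only (chr19:45908658-45908857, centre of the best-ranked peak): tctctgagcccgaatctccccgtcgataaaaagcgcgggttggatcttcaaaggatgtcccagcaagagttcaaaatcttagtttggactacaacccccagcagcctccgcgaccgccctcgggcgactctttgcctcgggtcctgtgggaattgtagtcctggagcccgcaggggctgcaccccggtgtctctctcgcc
FOSB locus, site near ERCC2, HIF-2α only (chr19:45879667-45879866): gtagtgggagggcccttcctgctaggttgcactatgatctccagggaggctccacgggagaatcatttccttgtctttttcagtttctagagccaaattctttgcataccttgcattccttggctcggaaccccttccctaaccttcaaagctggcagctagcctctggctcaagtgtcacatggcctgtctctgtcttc

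At the JUNB upstream site 3 copies of TGACTCA lay within the central 200 bp, and the third followed directly on a GCGTG. The FOSL2 intronic site held TGAGTCA between a GCGTG and a CACGT. The JUN downstream site had the palindrome CACGTG, which counts as 2 overlapping cores because it reads ACGTG on both strands. The FOS upstream site held 1 ACGTG. Neither motif was present in the windows at PPP1R13L and near ERCC2. The same held for 2 distal sites that are not printed, the FOSL1 site 11761 bp upstream and the site near GDF15 at the JUND locus. Their windows lay at the centre of the best-ranked peak. The whole PPP1R13L site held 12 cores, and the whole site near ERCC2 held 0. The peaks of every library at a site overlapped the window shown, except at the JUNB upstream site. There 7 of 10 libraries had a peak across the window, and those of HIF-2α in HCT116 (both replicates) and in A549 (replicate 2) lay elsewhere in the site. A match to these letters is a description and not a measured contact.

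For the sites within 1 kb of a family start site, the HIF core in the central 200 bp is given with its flanks (at JUNB the nearest of 3 to the centre), since these are the promoters of the members themselves. Build, strand and capitals are as above. The HCT116 peak at the FOS promoter and the peak of HIF-2α in HCT116 replicate 3 at the FOSL2 promoter did not reach the core shown.
FOSL2 promoter (chr2:28615991-28616019, 5′ untranslated region): gcgggacgggcgCACGCcgccttctccta
ATF3 internal promoter (chr1:212782098-212782126, untranslated region): aagccacagtcgCACGCagccaggcgcgc
FOSL1 promoter (chr11:65667383-65667411): accctaggcgccCACGCcccttctgaagc
JUN promoter (chr1:59250414-59250442): gagtcggcccccCACGTtgagaacactcc
FOS promoter (chr14:75744850-75744878): aaggtctgcttcCACGCtttgcactgaat
FOSB alternative promoter (chr19:45972524-45972552): tctgacgcggggCACGCacggcgcgcggc
JUNB promoter (chr19:12902178-12902206): cctccccttcccCACGCtcgaggaggggg

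The peak lists held between 275 and 4505 peaks, and 0 to 28 peaks of each lay at the family loci. The longest lists were those of HIF-1α in HCT116 (4505 and 4465 peaks, 28 and 22 of them at the loci). The shortest was HIF-2α in PC3, replicate 1, with 275 peaks and 1 at the loci, and the list of HIF-1α in A549, replicate 2, had 382 peaks and 0 at the loci. The other PC3 HIF-2α list had 1290 peaks, and the PC3 HIF-1α lists had 1517 and 3413. Sequencing depth is not known from the lists, so a missing peak may lie below the calling threshold, and list length and amount of binding cannot be told apart. Each peak carries a score given by the peak caller, with a lowest value close to 50 in every list. Scores are given per library, and their percentile is the rank of the peak within its own list.

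The family loci were bound at promoters and at a distance. Of the 46 sites, 7 had their centre within 1 kb of a start site of a family gene, 14 within 1 kb of a start site of another gene, and 25 were distal to both. The share within 1 kb of any start was 45.7%, beside 45.6% of all 11664 sites. HIF-1α alone was found at 5 of the 7 family promoters, HIF-2α alone at 0, and both isoforms at 2. At the distal sites HIF-1α alone was found at 9, HIF-2α alone at 6 and both at 10. At the promoters of other genes the numbers were 11, 0 and 3. Counting each library with a peak at a site as 1 entry, the family promoters had 18 HIF-1α and 6 HIF-2α entries, the distal sites 39 and 31, and the other promoters 33 and 3. The 6 sites with HIF-2α alone were thus all distal. No test was made of this split, and it was not counted by class over all 11664 sites, so it cannot be read as a trait of these loci. The paper reports that HIF-1 binds closer to start sites than HIF-2 in general. HIF-1α had the longer lists in HCT116, PC3 and T47D and HIF-2α in A549 (1382 and 1056 peaks, against 382 and 629), and 4 of the 6 sites with HIF-2α alone were single A549 peaks. The part of list length in the split was not tested.

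**Figure D1:**
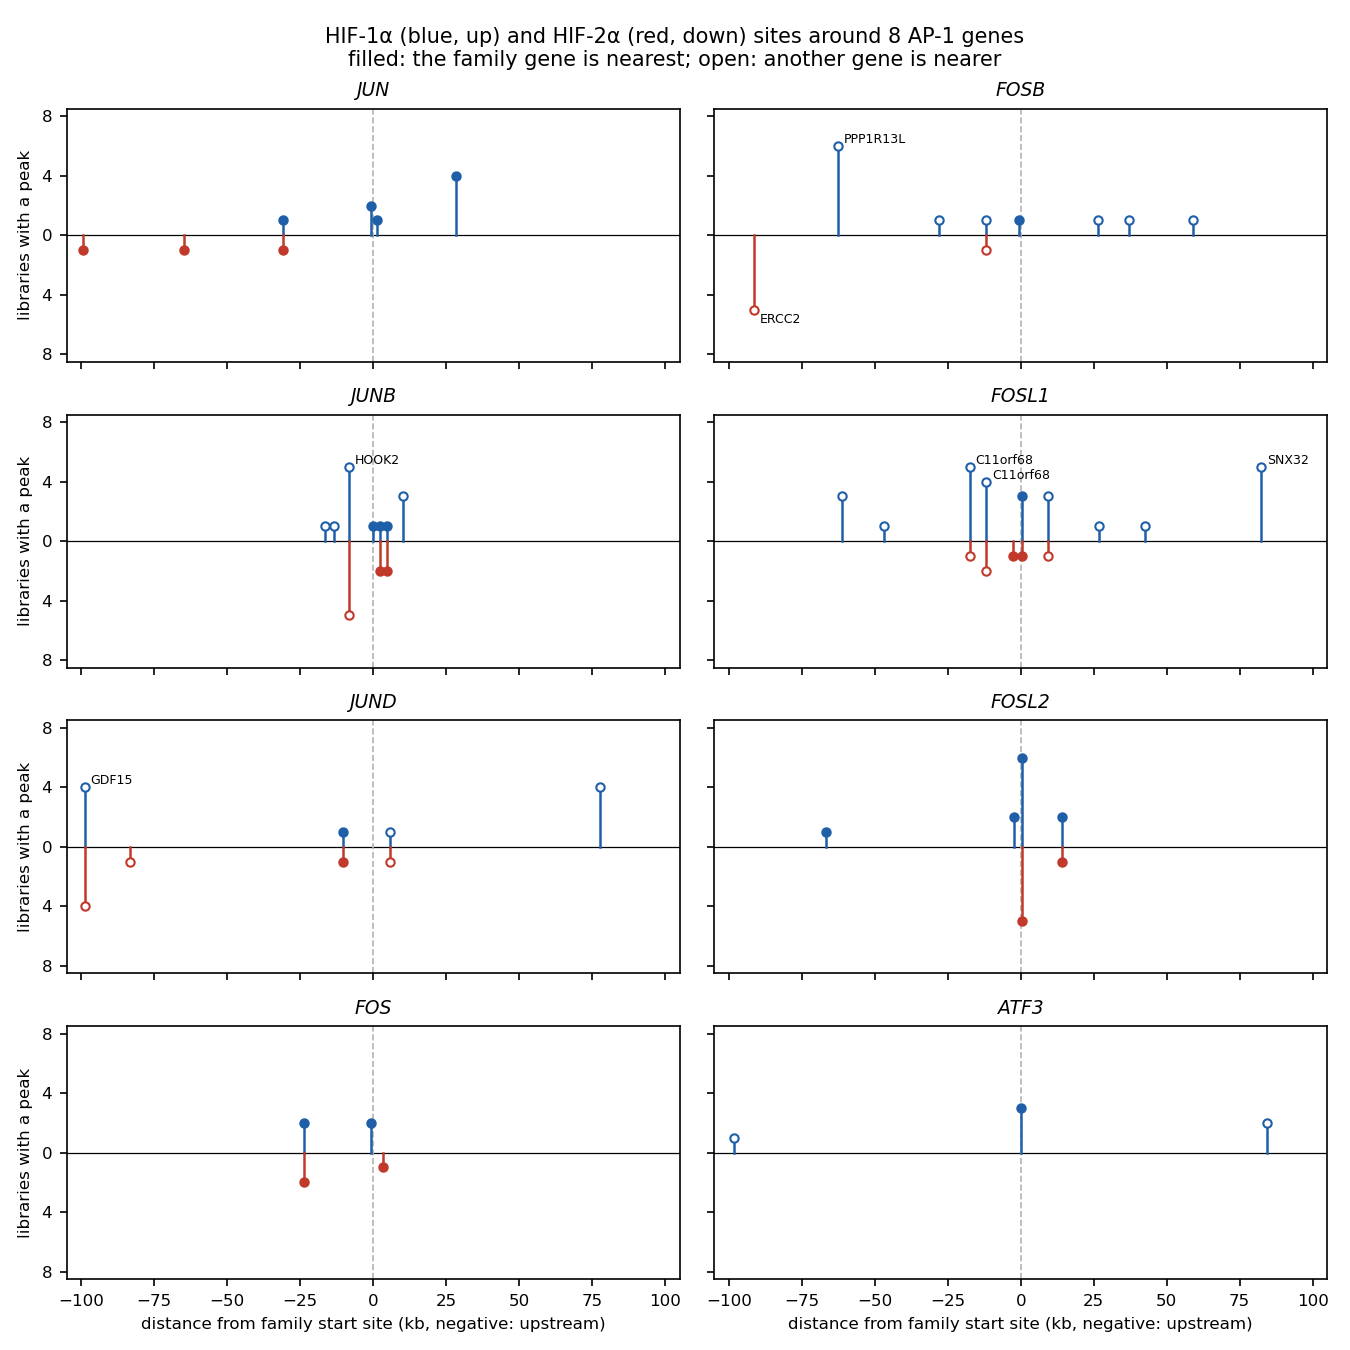
Sites within 100 kb of the 8 genes, plotted by distance of the site's centre from the family start site (kb, negative upstream) against the number of libraries with a peak, HIF-1α upward in blue and HIF-2α downward in red (8 libraries each), with filled circles where the family gene is nearest. FOSL2 has its tallest site at the start site (6 and 5 libraries), and JUND has 0 sites within 1 kb. The tallest sites of JUN, JUNB, JUND, FOSB and FOSL1 lie away from their start sites. At FOS the upstream site and the merged promoter site tie for HIF-1α (2 libraries each), although the HCT116 peak of the promoter site ends short of the start. HIF-2α is found at the upstream site (2 libraries) but not at the promoter site.

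Most family sites were found in few libraries. Of the 46, 19 (41.3%) had a peak in 1 library, 21 (45.7%) in 2 to 5 and 6 (13%) in 6 or more, against 59.5%, 35.3% and 5.23% of all 11664 sites. Both replicates of at least 1 group had a peak at 22 sites (47.8%, against 31.7% of all sites). Both isoforms were found at 15 sites (32.6%, against 13.8%), HIF-1α alone at 25 (54.3%, against 60.9%) and HIF-2α alone at 6 (13%, against 25.2%). An HCT116 peak was present at 35 sites (76.1%, against 64%), a PC3 peak at 21 (45.7%, against 39.1%), an A549 peak at 11 (23.9%, against 17.9%) and a T47D peak at 6 (13%, against 13.1%). A single line held 27 of the sites (58.7%, against 76.6%), and 1 site had peaks in all 4 lines (against 2.76% of all sites). The median width of the merged family sites was 1552 bp, against 1227 bp over all sites, and a wider site can join more peaks.

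**Figure D2:**
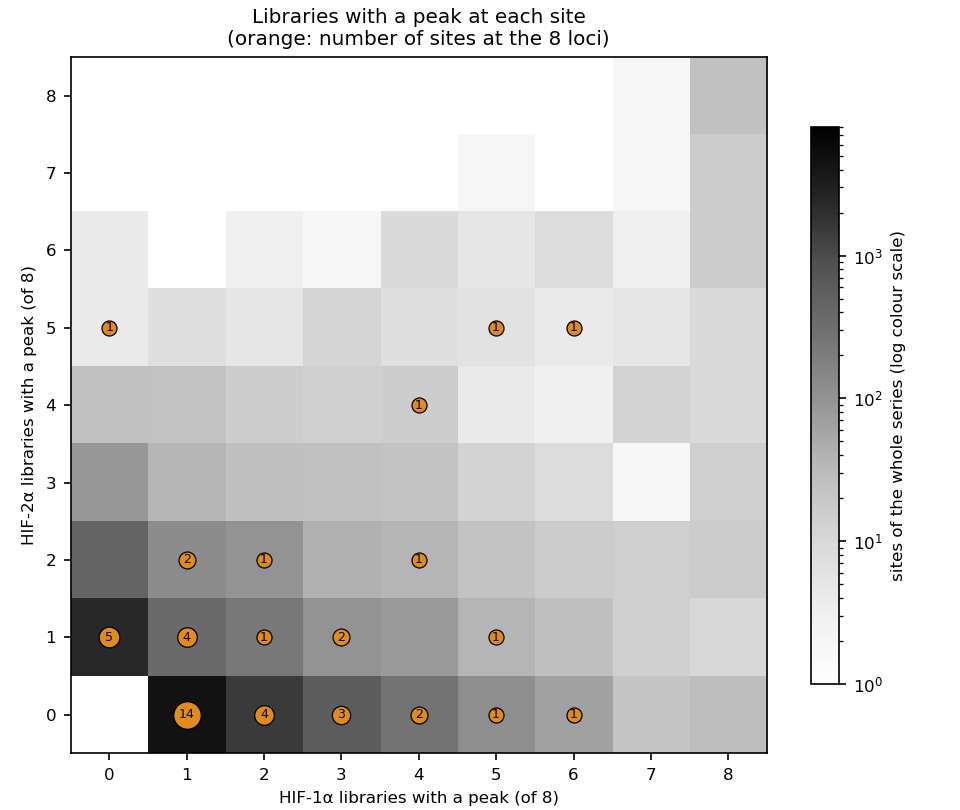
Each cell is a combination of the number of HIF-1α libraries (x axis, of 8) and HIF-2α libraries (y axis, of 8) with a peak at a site, shaded by the number of sites of the whole series (log colour scale), with the number of family sites in orange. At 1 HIF-1α and 0 HIF-2α libraries lie 14 family sites, and the lone sites at 6 and 5, at 6 and 0, and at 0 and 5 are those at FOSL2, PPP1R13L and ERCC2.

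JUN encodes c-Jun, the strongest activator among the Jun proteins. Its locus had 6 sites, with JUN the nearest gene at all of them, and 8 HIF-1α and 3 HIF-2α library entries. The site in most libraries lay 28374 bp downstream of the start (chr1:59220615-59222075), outside protein-coding genes and inside an intron of a non-coding gene. HIF-1α gave scores there of 287 and 167 in HCT116 and of 137 and 609 in PC3, at percentiles 93, 87.8, 83.9 and 97.3 of their lists. None of the 8 HIF-2α libraries and none of the A549 and T47D libraries had a peak there, so the libraries with and without a peak divided by isoform within HCT116 and PC3. With 4 libraries the site was below the 6 that the isoform test required. A filter of 4 libraries, which takes it in, called 0 sites. A site in 4 libraries cannot reach an exact p under 0.05 in this test, so that outcome says nothing about the JUN site.

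The JUN promoter site (chr1:59249429-59251366, centre 678 bp upstream of the start) was found with HIF-1α in both PC3 libraries, with scores of 77.9 and 56.2, and in no other library. A further site inside the JUN coding exon, 1153 bp downstream of the start, had 1 HCT116 HIF-1α peak. Upstream, a site at 30890 bp was shared by replicate 2 of PC3 HIF-1α (68.7) and of PC3 HIF-2α (54.9). Sites at 64898 and 99542 bp upstream each had a single A549 HIF-2α peak, at percentiles 10.7 and 14.1.

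JUNB encodes a Jun protein that often restrains c-Jun activity. Its 7 sites lay in a dense region with 14 other protein-coding genes within 100 kb, and JUNB was the nearest gene at 3. The site in most libraries (chr19:12892482-12895456) lay 8331 bp upstream of JUNB inside an intron of HOOK2, a linker of cargo to microtubules, and was nearer to HOOK2, at 4698 bp from its start. HIF-1α scored 78.3 in A549 replicate 3, 175 and 290 in HCT116, and 63.3 and 117 in PC3. The HIF-2α scores were 53.5 and 76.2 in HCT116, 67.3 and 98.3 in A549, and 90.5 in PC3 replicate 2. The 2 A549 scores came from peaks that did not overlap, at chr19:12894422-12895389 in replicate 2 and chr19:12892949-12894213 in replicate 3. Each isoform thus had 5 of 8 libraries at this site, and the T47D libraries had 0 of 4. The whole site held 18 HIF cores and 4 AP-1 elements over 2975 bp.

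The sites nearest to JUNB were found in fewer libraries. The JUNB promoter site, 69 bp upstream of the start (chr19:12900578-12903885), had 1 peak, with HIF-1α in PC3 replicate 2 (score 57.3). At 2437 bp downstream all 3 peaks were from HCT116, with 78.7 for HIF-1α replicate 2 and 58.4 and 52 for HIF-2α. At 4832 bp downstream (chr19:12906486-12907779) both A549 HIF-2α libraries had a peak, at 134 and 89.2, beside 1 HCT116 HIF-1α peak at 68.3. These were the only family sites other than FOSL2 and FOS with a family gene nearest and both replicates of a HIF-2α group. JUNB and the genome annotation of HOOK2 overlap here, since a HOOK2 intron spans JUNB.

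JUND encodes the Jun protein that is widely expressed in resting cells. It was the only member with 0 promoter sites, and JUND was the nearest gene at 1 of its 5 sites. That site, 10339 bp upstream (chr19:18402064-18403479), had a peak in A549 HIF-2α replicate 2 (66.8) and in HCT116 HIF-1α replicate 3 (68.3), so no group had it in both replicates. The sites in more libraries belonged by distance to other genes. The site 98745 bp upstream of JUND (chr19:18490499-18491856) lay 1803 bp upstream of a start site of GDF15, a stress-induced cytokine, inside a GDF15 intron. HIF-2α scored 260 there in A549 replicate 2, 173 and 75.1 in HCT116 and 80.2 in PC3 replicate 2, and HIF-1α scored 175 and 69.8 in HCT116 and 62 and 167 in PC3. Each isoform had 4 of 8 libraries, and T47D again had 0 of 4. The promoter of RAB3A, a GTPase of vesicle release, lay 77701 bp downstream of JUND and had HIF-1α alone, at 317 and 155 in HCT116 and 109 and 160 in PC3.

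FOS encodes c-Fos, the classical immediate-early partner of c-Jun. No other protein-coding gene started within 100 kb of it, and it had 3 sites. The site 23859 bp upstream (chr14:75720912-75722429) was found in T47D alone and in all 4 of its libraries. HIF-1α scored 267 and 302 and HIF-2α 115 and 213, at percentiles 90.1, 89.4, 79.1 and 87.6 of their lists. The other 12 libraries had 0 peaks there. Their lists held from 275 to 4505 peaks, and those of T47D from 423 to 761. The part of list length was not tested. It was among the 275 best-scoring peaks of each T47D library.

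The merged site at the FOS promoter had peaks in other lines. This site (chr14:75743327-75746568, centre 582 bp upstream) had HIF-1α peaks in HCT116 replicate 3 (50.8) and PC3 replicate 2 (75.4). The HCT116 score was close to the lowest in the lists, and neither line had a HIF-1α peak in both replicates. The HCT116 peak (chr14:75743573-75744678) ended short of the start at 75745529. It was merged with the wider PC3 peak, which spanned the start. A site 3275 bp downstream of an alternative FOS start at 75746896 had a single A549 HIF-2α peak (50.6).

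FOSB encodes a Fos protein known for long-lived splice forms in the brain. FOSB was the nearest gene at 1 of its 8 sites, and that site (chr19:45971771-45973138) had a single peak, with HIF-1α in HCT116 replicate 3 (72.5). Its centre lay 680 bp upstream of an alternative FOSB start, inside a FOSB intron. The most frequent sites of the locus belonged to other promoters or lay between genes. The promoter of PPP1R13L, an inhibitor of p53, lay 62495 bp upstream of FOSB (chr19:45907520-45909997, centre 431 bp upstream of the PPP1R13L start). The T47D HIF-1α libraries scored 59.5 and 58.1, those of PC3 90.6 and 296, and those of HCT116 385 and 239, and HIF-2α had a peak in 0 of 8 libraries. The site 91486 bp upstream of FOSB (chr19:45879253-45880281) lay outside genes, 5591 bp from the start of ERCC2, a helicase of DNA repair, and showed the opposite presence. The HIF-2α scores were 87.4 and 59.4 in HCT116, 245 and 94.2 in A549, and 53 in PC3 replicate 2. HIF-1α had a peak in 0 of 8 libraries, whose lists held from 382 to 4505 peaks.

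FOSL1 encodes FRA1, a Fos protein linked to invasion of carcinoma cells. It had the most sites, 10, with 26 HIF-1α and 6 HIF-2α library entries, and FOSL1 was the nearest gene at 2. The promoter site (chr11:65666275-65668621) had its centre 411 bp downstream of a FOSL1 start at 65667859. HIF-1α scored 95.9 and 74.9 in HCT116 and 75.9 in PC3 replicate 2, and HIF-2α 68.4 in PC3 replicate 2. These peaks ranked near the middle of their lists, at percentiles from 45.5 to 62.7. The second site with FOSL1 nearest, 2700 bp upstream, had HIF-2α in PC3 replicate 2 (84.5).

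The highest FOSL1 scores lay 11761 bp upstream (chr11:65678247-65681364), outside genes and 6026 bp from a start site of C11orf68. In PC3, HIF-1α scored 173 and 348 and HIF-2α 132 and 507, and in HCT116 HIF-1α scored 54.6 and 70.3. All 4 PC3 libraries therefore shared it, at percentiles from 89 to 98.6, whereas the HCT116 peaks ranked at percentiles 13.9 and 43.8. Neither A549 nor T47D had a peak there. The site was among the 275 best peaks of all 4 PC3 libraries, including replicate 1 of HIF-2α, whose list held no more than that. At the C11orf68 promoter, 17456 bp upstream of FOSL1, HIF-1α was found in 5 libraries (57 to 249) and HIF-2α in 1 (51.7). A site 82258 bp downstream, nearest SNX32, had HIF-1α alone in 5 libraries, from 65.5 in T47D replicate 1 to 221 in PC3 replicate 2.

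FOSL2 encodes FRA2, and FOSL2 was the nearest gene at all 4 of its sites. Its promoter was the most widely shared member site. The site (chr2:28615009-28617122) had its centre 340 bp downstream of a FOSL2 start at 28615725, in the 5′ untranslated region. It was found in 11 of 16 libraries and in all 4 lines. HIF-1α scored 377 and 208 in HCT116, 74 and 123 in PC3, 80.9 in A549 replicate 3 and 98.8 in T47D replicate 2. The HIF-2α scores were 121 and 90 in A549, 106 in each HCT116 library, and 91.8 in T47D replicate 2. HIF-1α thus had a peak in 6 libraries and HIF-2α in 5, and the PC3 HIF-2α lists had none. HCT116 HIF-1α gave the highest ranks within a list, at percentiles 95.2 and 91.5.

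The other FOSL2 sites were those of HCT116. A site in a FOSL2 intron (chr2:28631610-28633095) lay 13974 bp downstream of an alternative FOSL2 start at 28618378. It scored 198 and 139 with HIF-1α and 59.9 with HIF-2α replicate 2. A site 2222 bp upstream had HIF-1α in both HCT116 libraries (63.4 and 71.2). A site 66555 bp upstream, in a BABAM2 intron, had 1 HCT116 HIF-1α peak (57.8).

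ATF3 encodes a stress-induced repressor that pairs with Jun proteins. Its locus had 3 sites, 6 HIF-1α and 0 HIF-2α library entries, and ATF3 was nearest at 1. That site (chr1:212780944-212783455) lay on an internal start of the gene, with its centre 58 bp upstream of it and well inside the gene, which begins at 212738676. HIF-1α scored 146 and 53.2 in HCT116 and 74.2 in PC3 replicate 2. The site 84423 bp downstream of ATF3 was the promoter of BATF3, another AP-1 gene, with HIF-1α in both HCT116 libraries (94.2 and 90.1). The remaining site, nearest NENF, had 1 T47D HIF-1α peak.

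**Figure D3:**
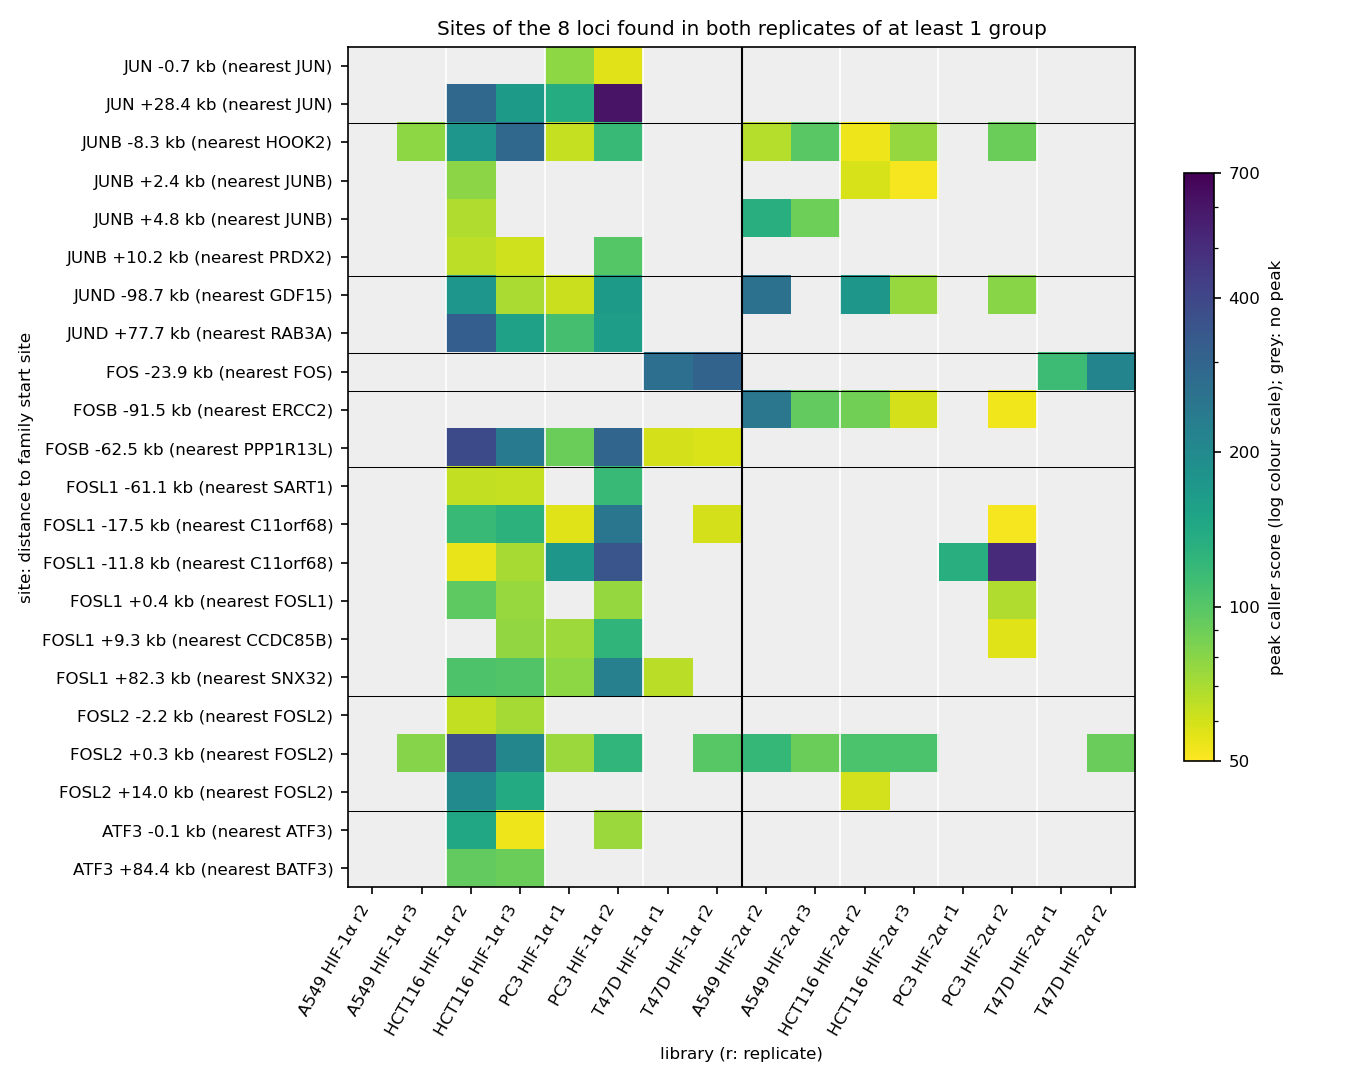
Peak caller score (log colour scale, grey where no peak was listed) in each of the 16 libraries at the 22 family sites found in both replicates of at least 1 group, HIF-1α on the left and HIF-2α on the right of the black line. The FOS upstream site is coloured in the T47D columns alone, the FOSL1 site at 11761 bp upstream is darkest in PC3, and the sites at PPP1R13L and ERCC2 are coloured on opposite sides.

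The isoforms were compared at each site by the share of libraries with a peak. The statistic was the mean over the 4 lines of the HIF-1α share minus the HIF-2α share, and the isoform labels of each line's libraries were exchanged in every combination (two-sided exact permutation test, smallest p 0.00154, adjusted over all tested sites by the Benjamini-Hochberg method). Of 610 sites with a peak in 6 or more libraries, 116 (19.0%) passed the threshold of 0.05, 112 (18.4%) with HIF-1α and 4 (0.656%) with HIF-2α higher. The 116 calls fell to 0 with libraries paired by replicate number, with a filter of 4 libraries or with HCT116 left out, and to 57 without PC3 HIF-1α replicate 2. Of the 46 family sites 6 could be tested, and 1 passed, the promoter of PPP1R13L at the FOSB locus. Its difference was 0.75, with HIF-1α in 6 of 8 and HIF-2α in 0 of 8 libraries (exact p = 0.00926, adjusted p = 0.0487). The call was lost when libraries were paired by replicate number (exact test, adjusted p = 0.122) and with a filter of 4 libraries (exact test, adjusted p = 0.113). Under the pairing a site in 6 libraries can reach no lower exact p than this site did. The loss with pairing thus says nothing about the site. Without any one of the 6 libraries that had the peak (both HIF-1α libraries of HCT116, PC3 and T47D), the site fell below the filter and could not be called. Family calls were 0 with peaks at or above the median score, with equal numbers of peaks per list and with a reciprocal overlap of 50%. The PPP1R13L promoter could not be tested at any of these settings, so those counts say nothing about its call.

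At the other 5 tested sites no difference was detected. FOSL2's promoter differed by 0.125 (exact p = 1, adjusted p = 1), and the JUNB upstream site and the site near GDF15 by 0 (exact p = 1, adjusted p = 1 for both). The FOSL1 site at 11761 bp upstream differed by 0.25 (exact p = 0.333, adjusted p = 0.547) and the C11orf68 promoter by 0.5 (exact p = 0.0833, adjusted p = 0.19). With 8 libraries of each isoform these values leave room for differences in presence, and they are no measure of equal binding. The site near ERCC2, with HIF-2α in 5 libraries, was below the filter. It was taken in only by the filter of 4 libraries, which called 0 sites. A site in 5 libraries cannot reach an exact p as low as that of the PPP1R13L promoter, which that filter did not call either. The outcome near ERCC2 was thus fixed by the number of libraries. No site with a family gene nearest passed the test.

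The lines were compared by whether the libraries with a peak were concentrated in some of them (one-sided exact permutation test that exchanged line labels within each isoform, smallest p 0.00122). Of 4680 sites with a peak in 2 to 14 libraries, 0 (0%) passed the adjusted threshold, and 498 (10.6%) had an unadjusted p under 0.05. Of the 27 family sites tested 0 passed, and 5 had an unadjusted p under 0.05. These were the FOS upstream site in T47D (exact p = 0.0051, adjusted p = 0.251), the FOSL1 site at 11761 bp upstream in PC3 and HCT116 (exact p = 0.00612, adjusted p = 0.251), the FOSL2 intronic site (exact p = 0.0357, adjusted p = 0.288), the JUNB site at 2437 bp downstream (exact p = 0.0357, adjusted p = 0.288) and the site near GDF15 (exact p = 0.0404, adjusted p = 0.288). A site in all 4 libraries of a line and in no others, such as that of FOS, reaches no lower p than 0.0051 in this design, and the lowest adjusted p over all tested sites was 0.251.

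Genes were then counted by group. A gene was counted where both replicates of the group had a peak at a site within 100 kb of a start. In HCT116, 7 of the 8 members were counted for HIF-1α (all but FOS), against 35.6% of all protein-coding genes, and 4 for HIF-2α (JUNB, JUND, FOSB and FOSL2), against 5.64%. In PC3, 6 were counted for HIF-1α (JUN, JUNB, JUND, FOSB, FOSL1 and FOSL2), against 18.0%, and FOSL1 alone for HIF-2α, against 2.19%. In A549, 0 were counted for HIF-1α, against 4.35%, and 3 for HIF-2α (JUNB, FOSB and FOSL2), against 8.01%. In T47D, FOS and FOSB were counted for HIF-1α, against 8.53%, and FOS for HIF-2α, against 2.34%. Several of the counts rest on sites nearer to other genes, such as those of JUND and FOSB in HCT116.

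Over all groups of an isoform, 8 members were counted for HIF-1α (39.4% of all genes) and 6 for HIF-2α (12.6%), JUN and ATF3 being the absent ones. With the 275 best peaks of each list, 3 members were counted for HIF-1α and 4 for HIF-2α. The share of all genes was not counted at this setting, so the change of order cannot be read as a trait of the members. With the site within 1 kb of a start, 4 members remained for HIF-1α (JUN, FOSL1, FOSL2 and ATF3, against 11.9%) and FOSL2 for HIF-2α (against 1.27%). With the member as the nearest gene of the site, 5 were counted for HIF-1α (JUN, FOS, FOSL1, FOSL2 and ATF3, against 13.4%) and 3 for HIF-2α (JUNB, FOS and FOSL2, against 3.96%). JUND and FOSB dropped out of both under this rule. The members lie in gene-rich regions to unequal degrees, with 0 other coding genes within 100 kb of FOS and 14 near JUNB, and the shares of all genes were not matched for this.

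**Figure D4:**
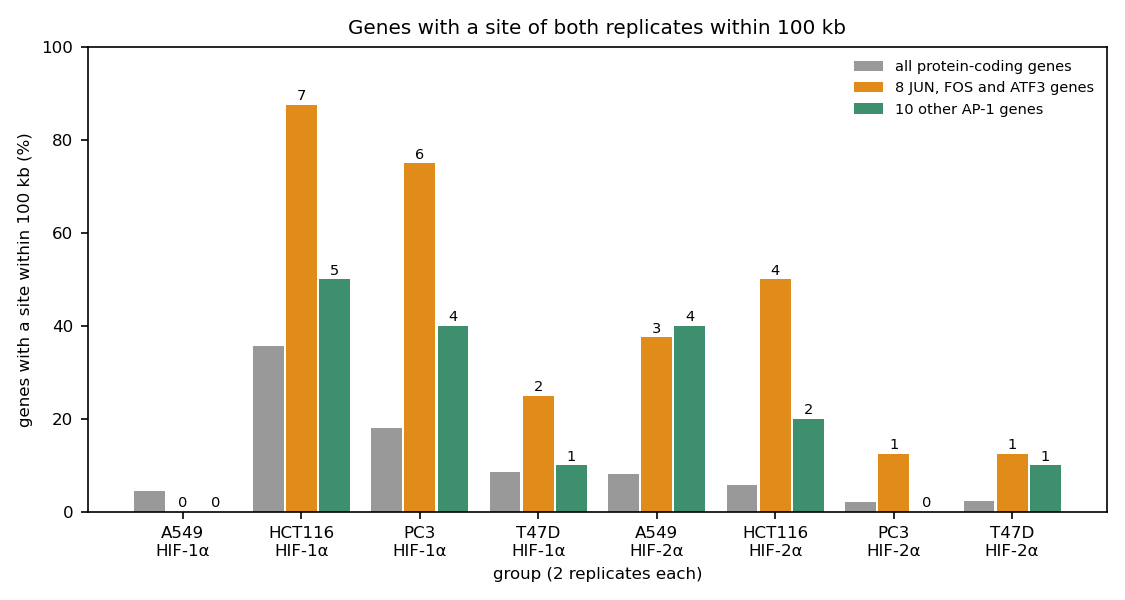
Share of genes (%) with a site of both replicates within 100 kb of a start, for each of the 8 groups, in all 19821 protein-coding genes (grey), the 8 JUN, FOS and ATF3 genes (orange) and 10 other AP-1 genes (green), with the number of genes above the coloured bars. The orange bars reach 7 genes in HCT116 HIF-1α and 6 in PC3 HIF-1α, and A549 HIF-1α has 0 beside 3 in A549 HIF-2α.

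Other genes of the AP-1 network, the ATF, BATF, JDP and MAF genes, served as a further comparison. The list of 10 comprised ATF2, ATF7, BATF, BATF2, BATF3, JDP2, MAF, MAFF, MAFG and MAFK. By the 100 kb rule, 5 were counted for HIF-1α (BATF2, BATF3, MAFF, MAFG and MAFK) and 5 for HIF-2α (BATF, JDP2, MAFF, MAFG and MAFK), beside the shares of all genes of 39.4% and 12.6%. A site within 1 kb of a start was found for BATF3 and MAFF with HIF-1α (against 11.9% of all genes) and for MAFF with HIF-2α (against 1.27%). ATF2, ATF7 and MAF had no such site in any group. The BATF3 promoter is also one of the ATF3 locus sites, so the lists share it.

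Motifs in the central 200 bp were counted on both strands. A HIF core (ACGTG or GCGTG) was present at 30 of 46 family sites (65.2%, Wilson 95% interval 50.8 to 77.3), against 50.5% of all 11664 sites. The AP-1 element (TGACTCA or TGAGTCA) was present at 5 (10.9%, interval 4.73 to 23), against 6.94% of all sites. These 5 were the JUNB upstream site, the FOSL2 intronic site, the FOSL2 site at 66555 bp upstream, the JUN site at 64898 bp upstream and the site 5823 bp downstream of JUND, nearest IQCN. None of the 7 family promoters held the AP-1 element in this window, and all 7 held a HIF core. The shares over the promoter sites of the whole series were not counted, so these counts cannot be read as traits of the family promoters. Over whole sites the shares were 93.5% and 34.8%, against 88.8% and 23.6%, and the intervals cover counting error only.

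The members just inside the 100 kb limit were peaks 98814 and 98896 bp from JUND (scores 75.1 and 80.2, both at the GDF15 site) and 99542 bp from JUN (56.4). The peaks just outside lay 101681 and 101820 bp from FOSL1 (168 and 59.7) and 102345 bp from FOS (64.1).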

How the data were processed

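HIF-1α and HIF-2α ChIP-seq peak lists of A549, HCT116, PC3 and T47D cells were used, 1 list per library and 16 in all, grouped by the cell line and antibody in the sample labels. Per the study's methods and the submitters' processing notes, reads were trimmed (Trim Galore 0.3.3), aligned to GRCh37 (BWA 0.7.5a-r405), filtered for mapping quality (SAMtools 0.1.19), blacklisted regions (bedtools 2.17.0) and duplicates (Picard 2.0.1), and peaks were called with MACS in control mode, whose version is not given in the sources used here. Peaks were numbered without gaps in all 16 lists. Whether any of the study's later filters, such as a second caller, preceded this numbering was not tested. Each peak has a score, which the authors deposited as the peak caller gave it, with no stated scale. It was used here only to rank and filter peaks within a list.

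The members and gene lists were chosen with earlier results of these data known. A further gene of the list of other AP-1 genes is not reported here. Computations were run with scipy 1.17.1 and numpy 2.4.6 under Python 3.11.15, sequences were read with pysam 0.24.0, and figures were drawn with matplotlib 3.10.9. Peaks sharing at least 1 bp were merged into sites, and distance ran from a site's centre to the nearest start of a protein-coding transcript of GENCODE release 44 mapped to GRCh37. Of all peaks, 29 lay off the main chromosomes and were left out of distances. Motif letters were searched in the GRCh37 sequence. Presence of a peak was tested by exact permutation within cell line (isoforms) or within isoform (lines), with Benjamini-Hochberg adjustment over all sites tested. The functions were tested on simulated data. Named were the promoter sites, for each gene the site in most libraries with that gene nearest, sites in at least 8 libraries and sites past a threshold. All other sites named were chosen after their values were seen. Alternatives covered score, list length, overlap, window, promoter limit, start sites, motif window, replicate pairing and each library left out. The centre of the best-ranked peak, and leaving out HCT116, were added after the data were seen.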

Additional observations from a re-analysis of the deposited data

How the results depend on the processing

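The main values were 46 family sites, 7 of them at promoters and 21 with a family gene nearest, and 116 sites (1 at a family locus) called by the isoform test. The deviations of same-numbered libraries correlated at -0.0135 to 0.0401 over 610 sites. These values rest on called peaks and do not settle whether a number marks a shared culture or day, which the labels do not give. With a replicate block, 0 sites were called in all and 0 at the family loci (156 of 610 with an unadjusted p under 0.05, smallest possible p 0.00781, exact permutation test). With a filter of 4 libraries 0 and 0 were called (321 of 1421 unadjusted). With HCT116 left out, 0 and 0 were called (61 of 289 unadjusted, smallest p 0.00926) and 30 family sites were left. Peaks at or above the median score gave 0 family calls, 26 family sites and 11 with a family gene nearest. With the 275 best peaks of each library, 63 sites were called, 0 of them at family loci, and 8 family sites remained. Of these, 1 was at a promoter and 3 had a family gene nearest. At this setting 3 family genes were counted for HIF-1α and 4 for HIF-2α, against 8 and 6, and the share of all genes was not counted. A reciprocal overlap of 50% gave 55 calls and 0 family calls. The PPP1R13L promoter could not be tested with the median score, the 275 best peaks or the reciprocal overlap. A promoter limit of 500 bp gave 4 promoter sites and of 5 kb gave 13. The HIF core share was 39.1% in the central 100 bp and 93.5% over whole sites, and the AP-1 share 4.35% and 34.8%. Leaving out each library gave 38 to 46 family sites, 5 to 7 promoter sites, 19 to 21 with a family gene nearest, 57 to 165 isoform calls and 0 to 1 family calls, and 0 calls between lines throughout. The fewest isoform calls came without a HIF-1α library of HCT116 (60 and 62), PC3 (70 and 57) or T47D (67 and 67). Fewer libraries at a site allow fewer small p-values, and otherwise the cause was not tested. The adjusted p of the PPP1R13L promoter ranged from 0.0392 to 0.122 over the 12 alternatives in which it could be tested by exact permutation. The differences at the JUNB upstream site and near GDF15, which were 0, ranged from -0.125 to 0.125 and from -0.25 to 0.125. Depth is unknown, and sites in fewer than 6 libraries entered only the test with the lower filter.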

Other observations

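A list of 13 other immediate-early genes, which are induced together with FOS and JUN by growth factors, was counted in the same way. Within 100 kb, both replicates of a HIF-1α group had a site at 8 of them (EGR2, EGR3, IER2, DUSP1, ZFP36, NR4A1, BTG2 and SRF), against 39.4% of all protein-coding genes, and both of a HIF-2α group at 5 (EGR3, IER2, DUSP1, KLF6 and NR4A1), against 12.6%. Within 1 kb of a start, HIF-1α had a site at DUSP1, a phosphatase of MAP kinases, at ZFP36, an mRNA decay factor, and at NR4A1, an orphan nuclear receptor. These 3 of 13 stand beside 11.9% of all genes. HIF-2α had a site at 2, DUSP1 in A549 and NR4A1 in HCT116, beside 1.27%. EGR3 was counted in all 8 groups by the 100 kb rule, although it was the nearest gene of such a site in none, and IER3, IER5, EGR1 and MCL1 in none.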
